A study of Mus musculus with 44 samples.

Results

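H3K27ac, acetylation of lysine 27 of histone H3 as found at enhancers and promoters in use, was compared between neuronal nuclei of the paraventricular thalamic nucleus (PVT) and of the striatum. The comparison covers all 4 PVT libraries and 8 striatal libraries, 4 of the caudate putamen (CP) and 4 of the nucleus accumbens (NAC), out of 44 libraries in the series. Read counts of all called peaks that overlap a protein-coding autosomal gene, extended by 5 kb on either side (build mm10), were summed per gene. Genes were kept where PVT lay on the same side of CP and of NAC, which held for 12183 of 20665 genes. Of these, 7504 stood higher and 4679 lower in PVT. The direction is what chose these genes, so it is a description, and only the tests below speak of single genes.

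All animals were adult C57BL/6 mice. Each region had 2 wild-type (WT) libraries and 2 libraries from Polg(D181A) mice, which carry a mutant form of the mitochondrial DNA polymerase and are studied as a model of bipolar disorder. As background that the labels do not give, that form is expressed from a transgene under the Camk2a promoter, which is active in forebrain neurons. Nuclei were sorted on NeuN, a protein of neuronal nuclei, before the immunoprecipitation, so all groups compared here share that gate. The labels do not say whether libraries of a group came from separate animals or pools, so the p-values measure the spread between these libraries, which may be technical. In bulk nuclei, fewer cells of a type and less mark per cell cannot be told apart.

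The PVT is a midline nucleus of the thalamus whose projection neurons release glutamate and are known for roles in arousal, stress and motivation, with a strong projection to the nucleus accumbens. Most neurons of the striatum are GABA-releasing spiny projection neurons, which read dopamine through receptors that raise or lower cAMP. The regions also arise from different parts of the embryonic forebrain, the thalamus from the diencephalon and the striatum from the ventral telencephalon. H3K27ac over a gene and its flanks marks regulatory DNA in use in those neurons.

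The libraries differed in quality between regions. Totals over peaks ran from 52759552 to 146450422 reads in PVT, from 12048787 to 101443484 in CP and from 6415127 to 80516545 in NAC. Peaks had been called separately for each region, over 135.8 Mb in PVT, 70.7 Mb in CP and 119.7 Mb in NAC. Between 7.1% and 13.8% of peaks had no read in a PVT library, against 19.9% to 80.8% in a striatal library. The highest shares were 80.8% in CP WT replicate 2, 69.6% in NAC WT replicate 2 and 52.5% in CP Polg(D181A) replicate 1. Across genes, counts rank-correlated at 0.93 to 0.95 between PVT libraries, 0.52 to 0.75 between CP libraries and 0.67 to 0.84 between NAC libraries. Between a PVT and a striatal library they correlated at 0.39 to 0.55, and between a CP and a NAC library at 0.50 to 0.69. Only libraries of the same region share a peak set, so values within and between regions are not alike in kind. Rbfox3, which encodes NeuN, had 1104 ± 42.8 counts per 1000000 reads over peaks (CPM) in PVT, 1360.3 ± 96.4 in CP and 1073 ± 55.5 in NAC (mean ± SD, n = 4 each, as for all means below).

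Among 12215 genes with a peak in all 3 regions, 1236 had more H3K27ac in PVT than in the striatum (10.1% of those tested) and 1034 had less (8.47%). The genes with less H3K27ac in PVT included GABA synthesis genes, transcription factors of striatal projection neurons and their dopamine and cAMP signalling genes. Those with more included thalamic transcription factors and the vesicular glutamate transporter Slc17a6, whose call was lost without any of 9 of the 12 libraries. Of 20 tested glutamate receptor genes, 7 had more and 3 had less. Most genes called higher did not keep their direction per kb of peak against both regions. Another 776 genes had a peak in PVT and in neither striatal region, among them Gbx2 and Prox1, and 894 had a peak in both striatal regions and none in PVT, among them Meis2, Dlx6 and Penk. Genes without a peak in a region are listed at 0 there, have no measured count and were not tested. A gene was called when the edgeR quasi-likelihood test of PVT against the mean of CP and NAC, averaged over genotypes, gave a Benjamini-Hochberg adjusted p under 0.05 and PVT lay on the same side of both regions.

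No library of PVT overlapped any striatal library for 959 of the 1236 higher and 771 of the 1034 lower genes. Over all tested genes, every PVT library lay above every striatal one for 1821 (14.9%) and below for 888 (7.27%). Against CP alone, 1176 genes were higher (9.63%) and 988 lower (8.09%), and against NAC alone 632 (5.17%) and 813 (6.66%). Both comparisons share the PVT libraries, so their likeness is no result. The median log2 difference over all tested genes was 0.43 against the striatum, and other ways of scaling the libraries placed it at 0.28 or 0.57, so differences of single genes are read beside that value. Counts of calls depended on single libraries. Without any 1 of the 4 PVT libraries, 630 to 677 genes were higher and 587 to 612 lower. Without CP WT replicate 1 these counts were 3181 and 1378, and without CP WT replicate 2 they were 1975 and 1543. WT libraries alone gave 150 higher and 125 lower genes, and Polg(D181A) libraries alone 889 and 942.

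**Figure D1:**
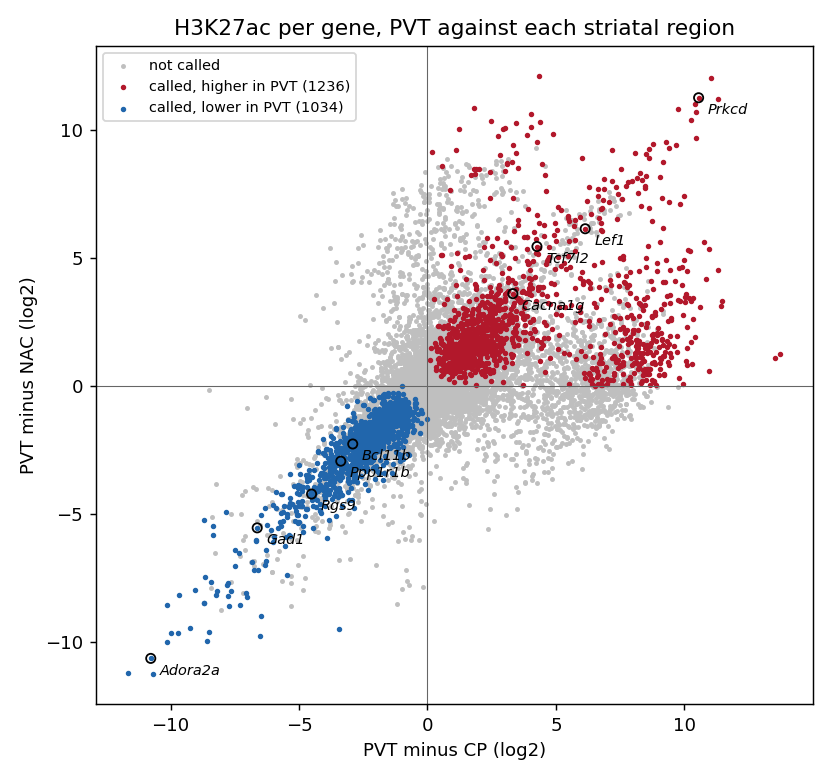
Log2 difference in H3K27ac counts per gene, PVT minus CP (horizontal) and PVT minus NAC (vertical), for the 12215 genes tested. Each point is a gene; the 1236 called genes higher in PVT lie in the upper right and the 1034 lower ones in the lower left, and both axes share the 4 PVT libraries.

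Higher counts in PVT came with longer called peaks. All 1236 genes called higher had a longer called length in PVT than the geometric mean of CP and NAC, with a median ratio of 6.21, and 1003 of the 1034 called lower had a shorter one, with a median ratio of 2.74 in the other direction. Over all tested genes PVT peaks were longer by a median ratio of 1.77. For 10203 of these 12215 genes (83.5%) the length ratio lay on the same side as the count difference. Genes called higher carried a median of 21.0 kb of peak in PVT, 2.11 kb in CP and 4.36 kb in NAC, and genes called lower 3.61, 8.43 and 13.4 kb. Counts per kb of peak were therefore tested as well. On that scale 4 genes were higher (0.0327%) and 41 lower (0.336%) in PVT against the striatum, with a median difference of −0.44 over all tested genes. With the libraries scaled by DESeq2 size factors the 2 counts were 2 and 8, with total counts 7 and 341. Against CP, 65 genes were higher (0.532%) and 863 lower (7.07%) per kb. Against NAC 0 passed in edgeR, with 502 genes at an unadjusted p under 0.05. Those 502 are fewer than that threshold gives where no gene differs, so they show no difference from NAC. Of the called genes, 253 of the 1236 higher and 756 of the 1034 lower kept their direction per kb against both regions. Over all tested genes the medians per kb already lay below 0, at −0.78 against CP and −0.18 against NAC. The 253 and 756 are therefore not weighed against each other. Each peak set was drawn from its own 4 libraries, and for most genes called higher the sum was larger over more kilobases of peak, without more counts per kb in both comparisons. Whether depth or the share of empty peaks moved the called length was not tested.

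**Figure D2:**
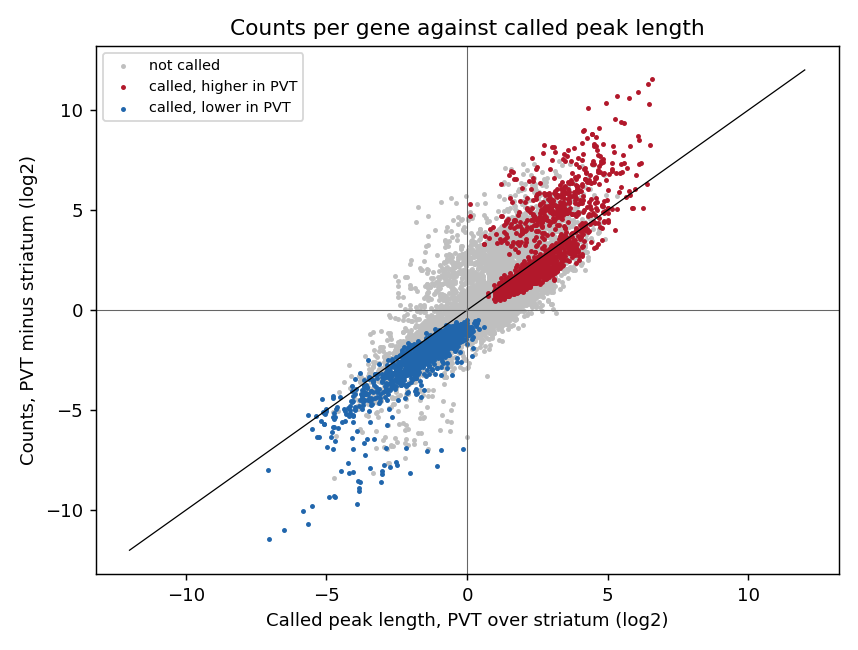
Log2 difference in counts per gene, PVT minus striatum (vertical), against the log2 ratio of called peak length, PVT over the geometric mean of CP and NAC (horizontal). Each point is 1 of 12215 genes and the diagonal marks equal change; genes called higher lie to the right of 0 and nearly all genes called lower to the left.

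Thalamic transcription factors had calls higher in PVT and none lower. Of 15 such genes, 7 had a peak in every region, and of these 4 were called higher and 0 lower. Their median log2 difference was 3.39 beside 0.43 over all tested genes, of which 10.1% were called higher and 8.47% lower. These shares stand beside all list counts below. A further 4 had a peak in PVT only. Gbx2, a homeobox factor of thalamic development and one of the markers, had 188, 147, 189 and 126 CPM in the WT replicates 1 and 2 and the Polg(D181A) replicates 1 and 2 of PVT, the order in which library values are given throughout. It had no peak in CP, NAC or the cortex libraries of the series. All its PVT counts lie in peaks shared with the flank of the neighbouring locus LOC102637806, so they cannot be given to Gbx2 alone. Prox1, a homeobox factor of thalamic and hippocampal neurons, had 449.9, 254, 381 and 329 CPM over 33.2 kb of peak in PVT and no peak in CP or NAC. Prox1 lies at chr1:190118035-190170827 (mm10).

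The promoters of 4 genes are shown because a called peak covered them on 1 side of the comparison only. They are the 250 bases before the annotated start, on the strand of the gene, from RefSeq (GRCm38.p6, which is mm10). The windows of Gbx2 (chr1:89931177-89931426, minus strand) and Prox1 (chr1:190170828-190171077, minus strand) overlapped a peak in PVT and none in CP, NAC or cortex, and both overlapped an ATAC-seq peak of open chromatin in PVT. The windows of Gad1 (chr2:70561879-70562128, plus strand) and Meis2 (chr2:116064620-116064869, minus strand) overlapped a peak in CP and in NAC, and none in PVT, in cortex or in the ATAC-seq data of PVT. Capitals mark the GC box GGGCGG in Gbx2, Prox1 and Gad1 and the TCF/LEF core CTTTGA in Meis2, searched on both strands.
Gbx2: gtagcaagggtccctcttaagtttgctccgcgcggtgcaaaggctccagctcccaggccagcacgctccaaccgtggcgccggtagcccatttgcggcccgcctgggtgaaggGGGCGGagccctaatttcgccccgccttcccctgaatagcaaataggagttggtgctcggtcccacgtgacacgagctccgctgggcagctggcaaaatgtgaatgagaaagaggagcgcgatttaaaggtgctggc
Prox1: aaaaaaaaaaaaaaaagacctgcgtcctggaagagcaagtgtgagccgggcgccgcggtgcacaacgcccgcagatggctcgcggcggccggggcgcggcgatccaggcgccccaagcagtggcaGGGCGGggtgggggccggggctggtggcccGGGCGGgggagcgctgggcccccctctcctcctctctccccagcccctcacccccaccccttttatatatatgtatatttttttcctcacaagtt
Gad1: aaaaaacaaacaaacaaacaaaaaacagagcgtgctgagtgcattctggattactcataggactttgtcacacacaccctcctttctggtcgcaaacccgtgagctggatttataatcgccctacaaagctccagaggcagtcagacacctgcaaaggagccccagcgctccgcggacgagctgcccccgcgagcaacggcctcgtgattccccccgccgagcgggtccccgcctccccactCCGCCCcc
Meis2: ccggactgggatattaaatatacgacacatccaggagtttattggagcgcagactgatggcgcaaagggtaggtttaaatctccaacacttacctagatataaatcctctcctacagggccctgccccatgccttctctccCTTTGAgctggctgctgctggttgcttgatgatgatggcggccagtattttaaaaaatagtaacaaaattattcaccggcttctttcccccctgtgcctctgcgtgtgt
Gbx2 and Gad1 hold 1 GC box each and Prox1 holds 2, a motif found in 43.4% of 20085 promoter windows of the same length from 16457 genes. The CTTTGA core stands in Meis2 alone of the 4, and in 12.6% of all windows. A TATAAA match lies in Prox1, Gad1 and Meis2 (11.7% of windows), the E-box CAGCTG in Gbx2 alone (12.2%), and TGACGTCA in none of the 4 (1.98%). A match of letters shows no binding.

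Tcf7l2, a TCF/LEF factor of Wnt signalling that adult thalamic neurons are known to keep expressing, was a marker of the PVT and was higher there. It had 1395, 1138, 1172 and 1099 CPM in PVT, 99.2, 0, 75.4 and 81.6 in CP and 15.1, 36.4, 32.5 and 25.6 in NAC. Every PVT library stood above every striatal one, and CP WT replicate 2 had no read. The mean was 18.8 times that of CP and 43.8 times that of NAC, with a log2 difference from the striatum of 4.86 (SE 0.95, adjusted p = 0.00606, edgeR). Called peaks over Tcf7l2 covered 101 kb in PVT, 4.06 kb in CP and 3.04 kb in NAC. Per kb of peak the log2 difference was −0.38 against CP and 0.40 against NAC.

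Lef1, the other TCF/LEF factor of the list, had 415, 312, 343 and 341 CPM in PVT, 8.07, 0.336, 0 and 11.5 in CP and 5.23, 0, 16.7 and 0.804 in NAC. The PVT libraries stood well apart, with a mean of 353 ± 43.8 CPM against 4.97 ± 5.72 and 5.69 ± 7.71 (log2 difference 6.15, SE 1.31, adjusted p = 0.00957, edgeR). Against NAC alone its adjusted p was 0.0514. The nuclear receptor gene Rora, which acts in thalamic and cerebellar neurons, and the LIM-homeobox gene Lhx2 were called as well, though both fall outside the rule for named genes and were picked after their values were seen. Rora had 3322, 2630.0, 2515 and 2249.7 CPM in PVT, 337, 309, 316 and 353 in CP and 150.0, 363, 202 and 178 in NAC (log2 difference 3.31, SE 0.21, adjusted p = 1.4e-05, edgeR). Its called length was 294 kb in PVT, 20.6 kb in CP and 18.4 kb in NAC, and per kb it stood lower in PVT against both regions (−0.81 and −0.40). Lhx2 had 217 ± 29.3 CPM in PVT, 35.2 ± 32.7 in CP and 7.32 ± 6.34 in NAC.

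Other members of the list lacked a peak in part of the striatum. Lhx9, a LIM-homeobox factor of the thalamus, had 377, 227, 293 and 300.3 CPM in PVT and no striatal peak, with 9.19% of these counts in peaks of no other gene. The zinc finger genes Zic1 and Zic4, which share a promoter region, had no peak in CP. In NAC only Polg(D181A) replicate 1 had reads over them. Zic4 had 467, 268, 408 and 324 CPM in PVT. Pou4f1, a habenular factor, had 7.24, 8.41, 0.196 and 1.26 CPM over 0.770 kb, low beside the others. Olig3 had no peak in any region.

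**Figure D3:**
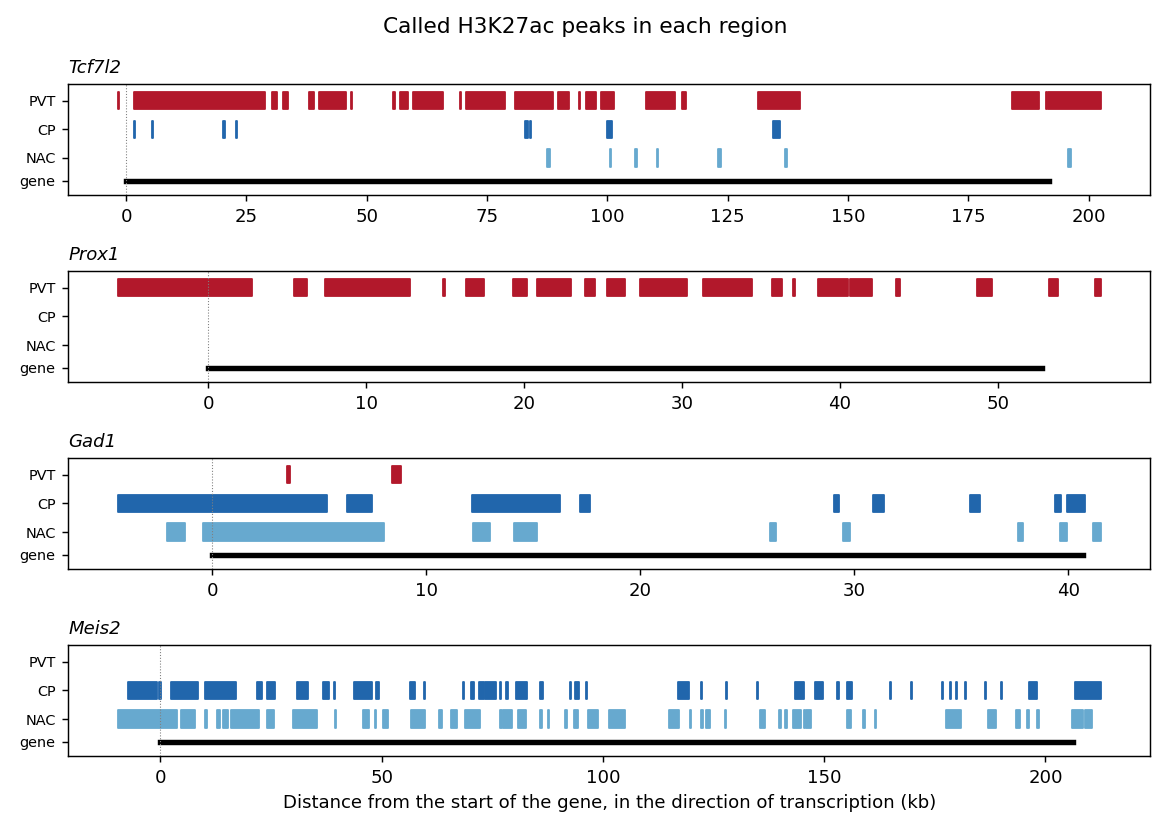
Called H3K27ac peaks over Tcf7l2, Prox1, Gad1 and Meis2 and their 5 kb flanks by distance from the start of the gene, one row per region. Filled blocks are called peaks and the black bar is the gene. Prox1 has blocks in PVT only, Meis2 in CP and NAC only.

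Genes of glutamate release and of thalamic excitability were mixed. Slc17a6, which encodes the vesicular glutamate transporter VGLUT2 of thalamic neurons, was called higher, picked after its value was seen. It had 236, 201, 175 and 179 CPM in PVT, 0, 52.6, 0 and 8.35 in CP and 1.49, 0, 12.7 and 18.3 in NAC (log2 difference 4.99, SE 1.49, adjusted p = 0.0430, edgeR). The PVT values lay above all striatal ones, of which 3 were 0. The call was lost without any of 9 of the 12 libraries, the 4 of PVT, the 4 of NAC and CP Polg(D181A) replicate 1, with adjusted p up to 0.133 (edgeR). Slc17a7, the VGLUT1 gene typical of cortex, had 27.1 ± 5.50 CPM in PVT, 63.7 ± 46.1 in CP and 6.94 ± 13.9 in NAC and was not called.

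Of 15 excitability channel genes, 13 were tested, 2 were called higher and 2 lower, with a median log2 difference of 0.92. With 10.1% higher and 8.47% lower over all tested genes, no direction is read from these counts. Cacna1g, the T-type calcium channel gene known for burst firing of thalamic neurons, had 564, 686, 564 and 643 CPM in PVT, 34.1, 88.3, 97.0 and 26.4 in CP and 42.1, 73.4, 41.9 and 44.9 in NAC. Every PVT library stood far above every striatal one, with a log2 difference of 3.47 (SE 0.36, adjusted p = 0.000199, edgeR), over 62.1 kb of peak in PVT and 2.49 and 4.80 kb in CP and NAC. Kcnd3, an A-type potassium channel gene, was the second (log2 difference 0.96, adjusted p = 0.0311, edgeR), and its call was lost without any of the 4 PVT libraries, NAC WT replicate 1 or either NAC Polg(D181A) library (adjusted p up to 0.118, edgeR). Both were picked after their values were seen. Scn1a, a sodium channel gene, was lower, with 74.0 ± 8.94 CPM in PVT, 180.1 ± 63.8 in CP and 183 ± 30.1 in NAC (log2 difference −1.26, adjusted p = 0.00466, edgeR). So was Ano3, of the anoctamin family (54.8 ± 13.8, 769 ± 228 and 523 ± 136 CPM).

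Glutamate receptor genes were called in both directions. Of 20 tested, 7 were higher and 3 lower in PVT, beside 10.1% and 8.47% over all tested genes. The median log2 difference was 0.73. Among the higher ones were the NMDA receptor genes Grin2a, Grin2b and Grin3a, the kainate receptor gene Grik3 and the metabotropic genes Grm2 and Grm4. Grm4 had 836, 829, 731 and 626 CPM in PVT, 93.5, 329, 90.9 and 87.4 in CP and 152, 88.3, 121 and 149 in NAC (log2 difference 2.51, SE 0.29, adjusted p = 0.000362, edgeR). No striatal library reached the PVT range. Of these 6, all but Grm2 had lower counts per kb in PVT than in the mean of the striatal regions. Grm2, which lies beside Tex264, has 11.3% of its counts in peaks of its own. Grm3, Grm5 and the kainate gene Grik2 were lower. Grm3 had 69.1 ± 18.1 CPM in PVT, 543 ± 151 in CP and 656 ± 251 in NAC (log2 difference −3.13, SE 0.30, adjusted p = 0.000121, edgeR) and kept its direction per kb.

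Of 13 GABA receptor genes, all tested, 2 were called higher and 0 lower, with a median of 0.15. Beside 10.1% and 8.47% over all tested genes, so few calls do not set the list apart. Gabbr2, a subunit of the metabotropic GABA-B receptor, had 4152, 3214, 3220.3 and 2888 CPM in PVT, 164, 198, 291 and 281 in CP and 96.2, 64.8, 208 and 108 in NAC (log2 difference 4.39, SE 0.20, adjusted p = 3.24e-06, edgeR). It had 282 kb of called peak in PVT, 10.5 kb in CP and 14.5 kb in NAC. Peak length in cortex, 170.0 kb, was also far above the striatal values. Gabrd, the delta subunit typical of tonic inhibition, was the other (log2 difference 1.49, adjusted p = 0.0431, edgeR), with 15.0% of its counts in peaks of its own, and its call was lost without any of the 4 PVT libraries, either Polg(D181A) library of CP or of NAC, or NAC WT replicate 1 (adjusted p up to 0.150, edgeR).

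The PVT is known to hold many receptors for peptides and arousal transmitters. Of 14 tested among 21 autosomal members, 1 was higher (Htr7) and 2 lower (Crhr1 and Npsr1), with a median of −0.69. Over all tested genes 10.1% were higher and 8.47% lower, so these counts set the list apart in neither direction. Htr7, a serotonin receptor gene picked after its value was seen, had 233 ± 29.4 CPM in PVT, 43.8 ± 56.3 in CP and 17.8 ± 13.9 in NAC. Crhr1, a receptor for corticotropin-releasing hormone, had 20.4 ± 10.2, 95.5 ± 22.2 and 83.7 ± 8.82 CPM (log2 difference −2.25, adjusted p = 0.00784, edgeR). The orexin receptor gene Hcrtr1 had 56.7 ± 13.1 CPM in PVT, 9.77 ± 10.7 in CP and 14.7 ± 14.8 in NAC and did not pass (adjusted p = 0.0921, edgeR), and 24.5% of its counts lay in peaks of its own. Hcrtr2 had 69.5 ± 16.6 CPM in PVT and 58.0 ± 49.6 in CP, with no peak in NAC. Adra2a, an adrenergic receptor gene, had a peak in PVT only.

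Wnt signalling genes other than the TCF/LEF factors above also went both ways. Of 16 tested, 4 were higher and 5 lower, beside 10.1% and 8.47% over all tested genes, with a median of 1.06. Axin1, a scaffold of the complex that degrades beta-catenin, was higher, with 168, 159, 123 and 145 CPM in PVT, 12.6, 0, 0 and 0 in CP and 12.1, 0, 26.6 and 23.1 in NAC. Its call was lost without NAC Polg(D181A) replicate 1 or 2 (adjusted p up to 0.0648, edgeR). Znrf3, Rnf43 and Wnt3 were also higher, the first 2 being ligases that remove Wnt receptors from the membrane. On the lower side stood Tcf7, a TCF/LEF factor of T cells, Tcf7l1, the co-repressor Tle4, the co-receptor Lrp6 and the kinase Gsk3b. Tle4 had 23.6 ± 5.31 CPM in PVT, 210.3 ± 80.2 in CP and 213 ± 85.9 in NAC (log2 difference −3.18, SE 0.42, adjusted p = 0.000679, edgeR).

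GABA neuron genes had calls lower in PVT and none higher. Of 12 autosomal members 5 were tested, and 3 of them were called lower and 0 higher, with a median of −3.53. The shares over all tested genes were 8.47% lower and 10.1% higher. Another 6 had peaks in CP and NAC and none in PVT. Gad1, the GABA synthesis enzyme gene and one of the markers of striatal neurons, had 3.83, 4.37, 3.68 and 1.87 CPM in PVT, 504, 103, 413 and 319.8 in CP and 146, 176, 148 and 156 in NAC. The highest PVT library lay far below the lowest striatal one. Mean counts were 97.4 times those of PVT in CP and 45.5 times in NAC (log2 difference −6.08, SE 0.54, adjusted p = 7.89e-05, edgeR). Peaks over Gad1 covered 0.545 kb in PVT, 17.8 kb in CP and 12.7 kb in NAC, and the direction held per kb (−1.60 and −0.997), without passing there (adjusted p = 0.196, edgeR).

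Gad2, the second synthesis enzyme gene, had 14.5, 23.0, 30.2 and 17.1 CPM in PVT, 276, 191, 222 and 197 in CP and 282, 241, 185 and 359 in NAC (log2 difference −3.53, SE 0.34, adjusted p = 0.000123, edgeR). It was picked after its value was seen, since per kb its sign against NAC was the opposite (0.06). Slc32a1, the vesicular GABA transporter gene, had no peak in PVT, 54.0, 1.76, 51.8 and 37.5 CPM in CP and 139, 124, 94.2 and 170.5 in NAC. The homeobox genes Dlx1, Dlx2, Dlx5 and Dlx6, which specify GABA neurons of the ventral forebrain, likewise had peaks in CP and NAC and none in PVT. Dlx6 had 579, 136, 382 and 230.3 CPM in CP and 770.2, 472, 373 and 649 in NAC.

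**Figure D4:**
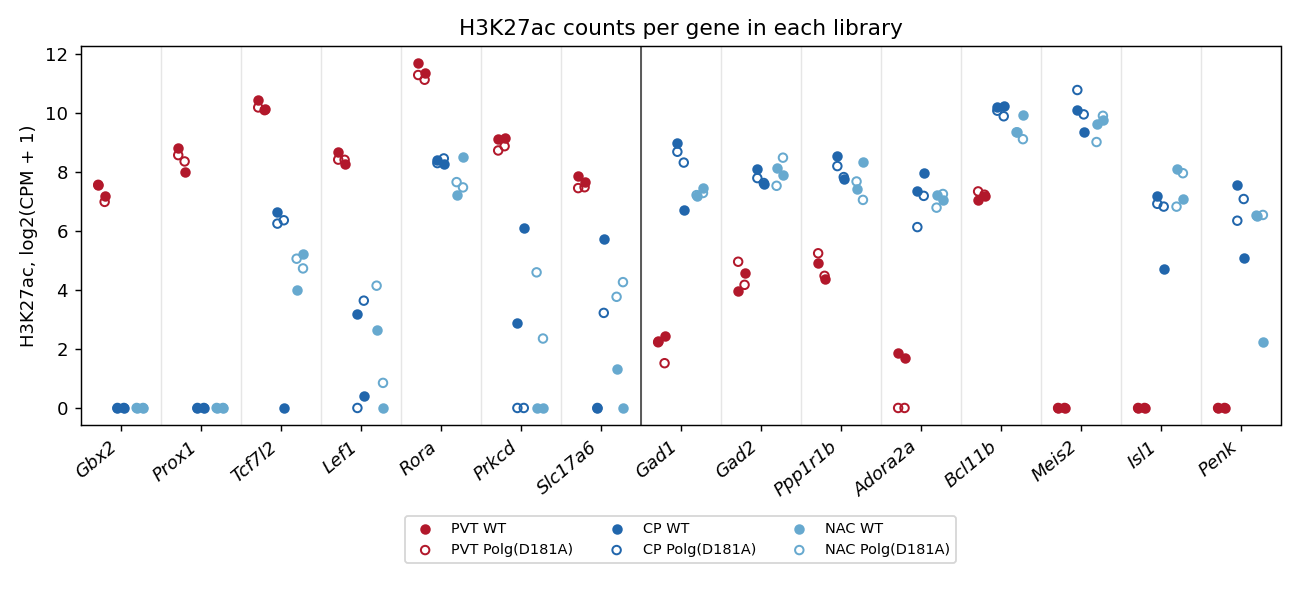
H3K27ac of 15 genes in each of the 12 libraries, as log2(CPM + 1). Filled points are WT and open points Polg(D181A) libraries, and points at 0 have no read or no peak. Gbx2 to Slc17a6 stand higher in all PVT libraries, and Gad1 to Penk lower.

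Transcription factors of striatal projection neurons had calls lower in PVT and none higher. Of 25 members 20 were tested, with 10 called lower, 10 not called and 0 higher, beside 8.47% lower and 10.1% higher over all tested genes. The median was −0.99, and 4 members had peaks in CP and NAC only. Per kb of peak the median was −0.40 beside −0.44 over all tested genes, so on that scale the list did not stand lower. Meis2, a homeobox factor of striatal precursors and projection neurons, had 1112, 661, 1767 and 995 CPM in CP and 790.2, 868, 519 and 963 in NAC over 62.1 and 78.2 kb of peak. It had no H3K27ac peak in PVT, where ATAC-seq counted 11.3 ± 3.74 CPM over its span. Isl1, a factor of the direct-pathway lineage, had no peak in PVT or in cortex, 144, 25.2, 121 and 113 CPM in CP and 277, 136, 113 and 249 in NAC. Six3 and Pbx3 showed the same absence in PVT.

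Bcl11b, which encodes CTIP2 and is needed for the maturation of spiny projection neurons, had 132, 146, 162 and 149.7 CPM in PVT, 1192, 1203, 1086 and 952 in CP and 655, 984, 653 and 555 in NAC. PVT values lay close together and below every striatal value (log2 difference −2.58, SE 0.17, adjusted p = 1.74e-05, edgeR). Bcl11b also passed per kb of peak (adjusted p = 0.0413, edgeR). Foxo1, a forkhead factor, had 28.4 ± 8.50 CPM in PVT, 381 ± 51.7 in CP and 279 ± 72.6 in NAC (log2 difference −3.52, adjusted p = 5.23e-05, edgeR), and Rxrg, a retinoid receptor gene, had 35.1 ± 8.90, 320.5 ± 146 and 148 ± 67.2 CPM (log2 difference −2.59, adjusted p = 0.00177, edgeR). Sp9, a factor of the indirect-pathway lineage, had at most 2.39 CPM in PVT and 83.4 ± 15.4 and 46.6 ± 22.7 CPM in CP and NAC. Its call was lost without PVT Polg(D181A) replicate 1 (log2 difference −6.47, adjusted p = 0.0624, edgeR). Rarb, Ebf1, Zfp503, Zfp521, Mef2d and Foxp1 were also called lower, though Rarb turned to 0.51 when only peaks overlapping in all 3 regions were counted. Foxp2, another forkhead factor gene, had 579 ± 104 CPM in PVT, 813 ± 341 in CP and 509 ± 156 in NAC and was not called (adjusted p = 0.832, edgeR).

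Most dopamine and cAMP signalling genes were lower in PVT. Of 31 tested among 32 members, 19 were called lower and 1 higher, beside 8.47% and 10.1% over all tested genes, with a median of −2.01. Per kb of peak the median was −0.74 beside −0.44 over all tested genes. Ppp1r1b, the DARPP-32 gene and a marker of striatal projection neurons, had 29.0, 19.98, 37.0 and 21.4 CPM in PVT, 373, 216, 294 and 227 in CP and 170.4, 321, 205 and 132 in NAC. Every PVT library lay below every striatal one (log2 difference −3.15, SE 0.35, adjusted p = 0.000276, edgeR). Only 2.48% of these counts lay in peaks of no other protein-coding gene, the rest being shared with Gm33099.

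Adora2a, the adenosine receptor gene of indirect-pathway neurons, had 2.604, 2.27, 0 and 0 CPM in PVT, 164, 249, 69.4 and 146 in CP and 149, 132, 110.2 and 152 in NAC. It had 0.221 kb of called peak in PVT, none in cortex, and 8.09 and 15.3 kb in CP and NAC. Mean counts were 129 times those of PVT in CP and 112 times in NAC (adjusted p = 1.4e-05, edgeR), and it was lower per kb as well (adjusted p = 0.0172, edgeR). Rgs9, a regulator of dopamine receptor signalling, had 17.1, 28.5, 39.9 and 40.5 CPM in PVT, 885, 298, 891 and 722 in CP and 593, 631, 457 and 575 in NAC (log2 difference −4.36, SE 0.35, adjusted p = 5.13e-05, edgeR). Pde1c, a phosphodiesterase gene, had 11.8 ± 6.41 CPM in PVT, 325 ± 66.2 in CP and 406 ± 86.0 in NAC (log2 difference −4.93, adjusted p = 8.4e-05, edgeR), yet it stood on the other side of 0, without passing, when peaks overlapping in all 3 regions alone were counted.

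The adenylyl cyclase gene Adcy5 and the phosphodiesterase genes Pde2a and Pde10a were lower too, picked after their values were seen. Adcy5 had 338, 315, 251 and 252 CPM in PVT, 1785, 1347, 1532 and 1258 in CP and 1018, 944, 774 and 869 in NAC, and it passed per kb (adjusted p = 0.0172, edgeR), as did Pde2a (adjusted p = 0.0413, edgeR). Drd2 was called lower (75.2 ± 9.14 CPM in PVT, 222 ± 80.2 in CP and 122 ± 16.4 in NAC, log2 difference −1.13), and its call was lost without any of the 4 PVT libraries or NAC Polg(D181A) replicate 2 (adjusted p up to 0.123, edgeR). Drd1 had 0.309, 0, 10.2 and 1.52 CPM in PVT, 98.0, 0, 80.7 and 37.3 in CP and 116, 68.1, 41.0 and 115 in NAC, with an adjusted p of 0.0509 (edgeR), just outside the threshold. CP WT replicate 2 had no read over Drd1, so the groups overlapped. Prkcd, a protein kinase C gene of thalamic neurons that the list counts among signalling genes, was the 1 member higher in PVT. It had 555, 564, 425 and 471 CPM in PVT, 6.39, 68.1, 0 and 0 in CP and 0, 0, 23.3 and 4.12 in NAC (adjusted p = 0.000216, edgeR), over 54.2 kb of peak in PVT and 0.502 and 1.31 kb in CP and NAC.

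Calcium-binding protein genes were called in both directions. Of 7 tested calcium-binding protein genes, Pvalb and Necab2 were higher and Calb1 and Hpca lower, with a median of 0.02. Over all tested genes the shares were 10.1% and 8.47%. Calb2, the calretinin gene common in PVT neurons, had 88.9, 57.1, 126 and 75.0 CPM in PVT, no peak in CP and 3.61, 4.73, 0 and 3.11 CPM in NAC. Hpca, the hippocalcin gene, had 27.5 ± 7.78 CPM in PVT, 175 ± 68.0 in CP and 119.6 ± 25.4 in NAC (log2 difference −2.40, adjusted p = 0.00183, edgeR). Pvalb, the parvalbumin gene, had 38.8 ± 10.9, 3.59 ± 6.14 and 10.9 ± 8.77 CPM (adjusted p = 0.0319, edgeR), and lost its call without any of the 4 PVT libraries, CP Polg(D181A) replicate 1 or either NAC Polg(D181A) library. Of 21 neuropeptide precursor genes 7 were tested. Nxph4 was called lower and Pomc higher, the latter with 2.47% of counts in peaks of its own and a log2 difference from NAC of 0.08 (adjusted p = 0.979, edgeR). The opioid peptide genes Penk and Pdyn had peaks in CP and NAC and none in PVT. Penk had 188, 32.8, 80.8 and 135 CPM in CP and 90.9, 3.68, 91.2 and 92.6 in NAC. Tac1, the substance P gene, had 1.88 ± 2.19 CPM in PVT, 89.1 ± 48.8 in CP and 48.4 ± 21.8 in NAC and did not pass (adjusted p = 0.0763, edgeR). Adcyap1, the PACAP gene, had a peak in PVT only.

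**Figure D5:**
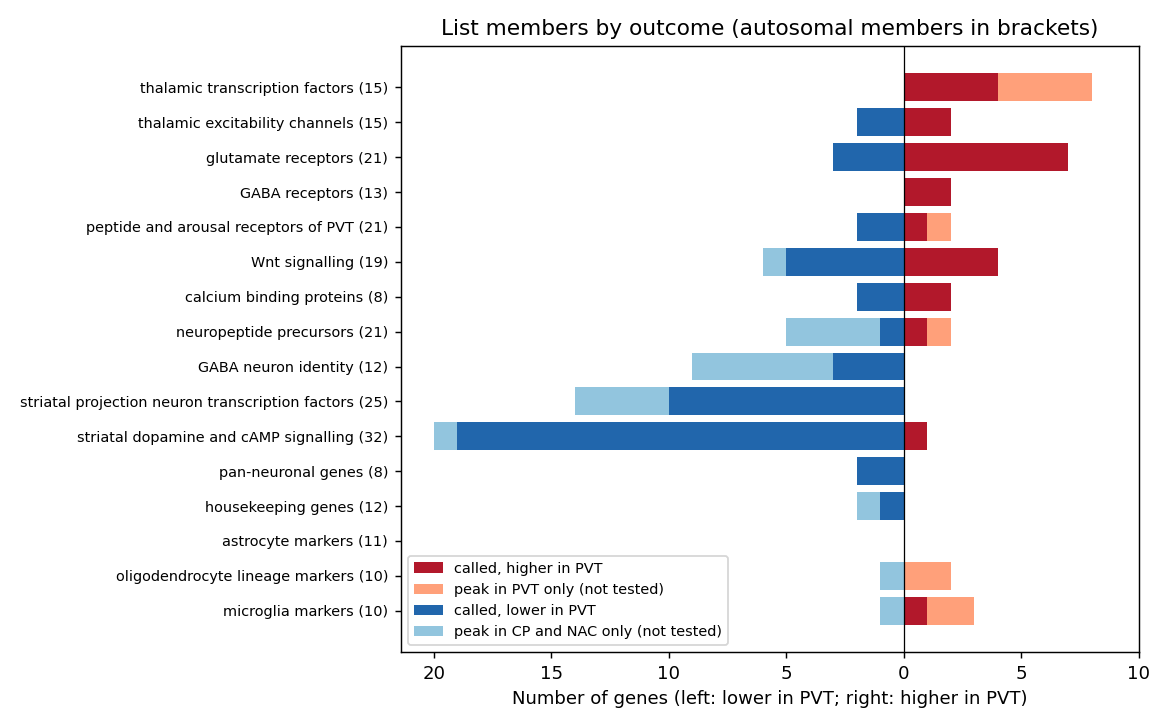
Numbers of genes per list called higher or lower in PVT, and of genes with a peak on 1 side only, which were not tested. Bars to the right are higher in PVT and bars to the left lower. The dopamine and cAMP list has 19 called lower, the thalamic factor list 4 called higher. Over all tested genes 8.47% were called lower and 10.1% higher.

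The leading genes across all lists were ranked by size of difference. That ranking puts genes with little mark on the other side first, so this trait of theirs is no result. Of genes called higher with the same direction per kb, the 10 that ranked first by the smaller of their differences from CP and NAC were Clybl, Prkcd, Nrn1, Tex44, Igf1, Nfe2l3, Ugt8a, Cnot10, Plpp4 and Tmco5b. Clybl, which encodes a mitochondrial enzyme, had 755, 584, 746 and 699.6 CPM in PVT, 0, 0, 53.8 and 18.7 in CP and 0, 0, 7.14 and 10.8 in NAC. PVT means were 38.5 times those of CP and 155 times those of NAC (adjusted p = 9.0e-06, edgeR), and Clybl passed per kb (adjusted p = 0.0172, edgeR). Nrn1, the neuritin gene, had 244 ± 31.5 CPM in PVT, 5.21 ± 10.4 in CP and 2.31 ± 4.63 in NAC. Igf1, a growth factor gene, had 152 ± 17.3, 1.93 ± 3.87 and 5.65 ± 6.86 CPM. Ugt8a, an enzyme gene of myelin lipid synthesis, had 74.6 ± 17.4, 4.77 ± 6.68 and 1.89 ± 3.78 CPM. In 9 of these 10 genes both libraries of at least 1 striatal genotype group in each of CP and NAC, and in Tmco5b in NAC, had no read, so fitted log2 differences depend on the prior count and are not given.

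The 10 leading lower genes were Emcn, Iqcm, Adora2a, Frem2, Tcf7, D7Ertd443e, Elac1, Zpld1, Dus3l and Moxd1. Emcn, the endomucin gene known from endothelium, had 0, 0, 3.14 and 2.58 CPM in PVT, 310.0, 118, 508 and 308 in CP and 234, 109, 216 and 334 in NAC (adjusted p = 1.84e-05, edgeR). Both WT libraries of PVT had no read over its 0.151 kb of peak. Iqcm had 1.61 ± 1.95 CPM in PVT, 169.7 ± 103 in CP and 256 ± 145 in NAC, and Frem2, an extracellular matrix gene, had 1.82 ± 3.63, 117 ± 44.1 and 108 ± 31.9 CPM.

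Among genes with a peak on 1 side only and at least 50% of counts in their own peaks, predicted loci left out, the 8 with the highest mean in PVT were Prox1, Rnf112, Cd300e, Cd83, Rnase6, Mixl1, Tmem92 and Oas1d. Rnf112, which encodes a ubiquitin ligase of the brain, had 287, 289, 298 and 251 CPM in PVT and no striatal peak, and it had 15.2 kb of peak in cortex. Cd300e and Cd83, immune receptor genes, had 231 ± 43.5 and 135 ± 33.7 CPM in PVT. By the same filter, the highest on the other side included Meis2, Dlx6, Gli3, Actn2, Pkhd1l1, Rgs13 and Pbx3. Gli3, a transcription factor of Hedgehog signalling, had 725, 143, 857 and 758 CPM in CP and 441, 80.7, 329.9 and 305 in NAC.

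Markers of other cells were measured beside these groups. The 11 astrocyte markers summed to 751 to 878 CPM in PVT libraries and to 123 to 314 in striatal ones. None of the 5 tested was called (median 2.16). Slc1a2, the glutamate transporter gene, had 541 ± 53.5 CPM in PVT, 118 ± 78.7 in CP and 133 ± 57.6 in NAC. Aqp4, Gja1 and Sox9 had no peak in PVT. Aqp4, Sox9, Aldoc and Aldh1l1 had none in CP, and Gja1 and Mlc1 none in NAC. The 10 microglia markers summed to 127 to 176 CPM in PVT and 51.6 to 130 in the striatum. Of 3 tested, 1 was called higher and 0 lower. Trem2 and Cx3cr1 had a peak in PVT only, at 3.55 ± 1.84 and 1.76 ± 2.25 CPM. Aif1, C1qa, C1qb, C1qc and Tmem119 had none in PVT. Of these, C1qa and Tmem119 also had none in CP or NAC, and C1qb and C1qc none in CP.

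Oligodendrocyte markers summed to 509 to 570 CPM in PVT and 484 to 742 in the striatum, and vascular and ependymal markers to 104 to 153 and 0.419 to 197. Neither list had a call, with 4 oligodendrocyte and 6 vascular and ependymal markers tested. With so few tested, the lack of calls says little. Olig1 and Mobp had a peak in PVT only, and Sox10, Olig2, Pdgfra and Mag had none there. Sox10, Olig2 and Mag also had none in CP, and Mag none in NAC. Markers of cortical projection neurons had 1 call in each direction, Cux2 higher and Camk2a lower. Camk2a had 362, 347, 313 and 235 CPM in PVT, 420.5, 157, 492 and 447 in CP and 572, 601, 1122 and 1254 in NAC. It overlapped with CP, and its call (adjusted p = 0.0427, edgeR) was lost without any of 10 of the 12 libraries, all but the CP WT ones (adjusted p up to 0.172, edgeR). Counting only peaks of no other gene turned its log2 difference from −0.83 to 0.21. By the background given above, the transgene uses the Camk2a promoter. Reads of gene and transgene over that promoter cannot be told apart in Polg(D181A) libraries, while WT libraries carry no transgene. The 8 markers of the neighbouring habenula and hippocampus, Prox1 among them, summed to 600 to 887 CPM in PVT and 24.0 to 214 in the striatum. Of 3 tested, Calb1 was called lower and 0 higher, and Prox1 and Pou4f1 had a peak in PVT only. Of reticular thalamus markers, Gad2 and Esrrg were lower and Pvalb higher, and Isl1 and Six3 had no peak in PVT. The part of other cells in the results was not tested.

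Of 8 tested genes that neurons share, Map2 and Syt1 were called lower, with log2 differences of −0.78 and −0.88 and a median of −0.10 over the list. Among 9 tested housekeeping genes Gapdh was called lower (log2 difference −2.54, adjusted p = 0.00837, edgeR), with all its counts in peaks shared with Iffo1, and the median was 0.02. The shift of medians between ways of scaling was larger than these 2 medians, so no direction is read from them.

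Single libraries decided some calls. Of the 46 genes called and named by rule, 32 remained called without any 1 of the 12 libraries. The call was lost in at least 1 case for Axin1, Camk2a, Cnot10, Crhr1, Dus3l, Gapdh, Gsk3b, Moxd1, Nxph4, Plpp4, Pomc, Pvalb, Sp9 and Tmco5b. Leaving out any of the 4 PVT libraries ended the calls of Cnot10, Nxph4, Plpp4, Pomc and Pvalb, with adjusted p up to 0.0712, 0.106, 0.0738, 0.0802 and 0.105 (edgeR, as for the values that follow). Gsk3b lost its call without PVT WT replicate 1 or Polg(D181A) replicate 2 (adjusted p up to 0.0570), Crhr1 without either PVT Polg(D181A) library (0.0523) and Gapdh without PVT WT replicate 2 or Polg(D181A) replicate 2 (0.0552). Dus3l lost its call without either PVT WT library (0.0952). So did Moxd1, and also without CP Polg(D181A) replicate 1 or any NAC library but WT replicate 1 (0.128). Tmco5b lost its call without PVT WT replicate 1, PVT Polg(D181A) replicate 1, either CP Polg(D181A) library or NAC WT replicate 1 (0.0626). Among genes picked after their values were seen, Calb1, Foxp1, Gng7, Grik2, Htr7, Map2 and Syt1 lost their calls without any of the 4 PVT libraries, with the highest adjusted p at 0.146 for Foxp1, and Ebf1, Grm5 and Tcf7l1 without 2 or 3 of them.

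The difference between PVT and striatum was also compared between genotypes. For 6 of 12215 genes (0.0491%) the regional difference in Polg(D181A) libraries differed from that in WT libraries, and 591 had an unadjusted p under 0.05. Those 591 are about as many as that threshold gives where no gene differs, so they add nothing to the 6. Kif3c, named because only 6 genes passed, was added to the 5 of smallest p after its values were seen. The 6 were Plekhg1, Clybl, Adora2a, Emcn, D7Ertd443e and Kif3c, and for each, both libraries of at least 1 genotype group had no read. Kif3c, a kinesin gene, had 228, 159, 183 and 172 CPM in PVT, 27.1, 42.5, 0 and 0 in CP and 54.4, 107, 51.0 and 39.2 in NAC. Plekhg1 had 656, 462, 428 and 517 CPM in PVT, 0, 0, 32.5 and 18.7 in CP and 15.3, 13.3, 40.7 and 67.5 in NAC. PVT lay on the same side of the striatal means in both genotypes for all 6. Without any 1 of the 4 PVT libraries the count was 0, without CP WT replicate 1 it was 1376, and DESeq2 gave 947.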

How the data were processed

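Each region's deposited table held read counts per H3K27ac peak for its 4 libraries, made by the authors, with ATAC-seq counts for PVT and H3K27ac counts for cortex in further tables. Per the submitters' processing notes, STAR, HOMER, featureCounts, Subread and DESeq2 were used with build mm10, with no roles or versions given in the sources used here. Columns named TG were taken as Polg(D181A), the one genotype besides WT in the labels.

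Counts of peaks overlapping each of 20665 autosomal protein-coding genes, extended by 5 kb, were summed. A peak near several genes counts for each, and the share in peaks of no other gene was kept beside it. Genes with a peak in all 3 regions were tested in edgeR 4.0.16 (R 4.3.3) by the quasi-likelihood F-test with TMM scaling, 6 region-by-genotype means and 6 residual degrees of freedom. Counts per kb used the log of called peak length as an offset. CPM are counts per 1000000 after TMM scaling. On data simulated for PVT against striatum over 12215 genes, with 50 changed genes per fold size, 2% of 2-fold, 22% of 4-fold, 32% of 8-fold and 48% of 16-fold changes were recovered, and 3 of 12015 unchanged genes were called. Each simulated gene had the same spread in all regions, and far fewer genes were changed than were called here. In the data PVT libraries were closer to each other than striatal ones, so these rates need not hold for the data. Alternatives included DESeq2 1.42.0, voom in limma 3.58.1, other scaling, filters and peak sets, and leaving out each of the 12 libraries.

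Named genes were the 4 markers (Gbx2, Tcf7l2, Ppp1r1b and Gad1), the first 10 per direction with the same direction per kb, a mean of at least 20 CPM and at least 50% of counts in their own peaks, up to 4 called per list and direction with the same direction per kb, 8 per side without a peak on the other and with at least 50% of counts in their own peaks, and 5 for the genotype comparison. A few genes of the lists and of this rule are not reported here. The members, lists and this rule were chosen with earlier results of these data known. A check of promoter base composition was void, since 79.1% of genes called higher and 76.1% called lower had a promoter sequence, under the minimum of 80% set for such a check. The labels do not say whether replicate numbers pair libraries across regions. Deviations from group means of same-numbered libraries correlated at −0.03 to 0.12. With separately called peaks and sparse libraries, these values cannot decide whether libraries were paired.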

Additional observations from a re-analysis of the deposited data

Results flagged for a closer look

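For 6 genes the difference between PVT and striatum differed between genotypes by the interaction term of the edgeR fit (adjusted p from 0.0147 to 0.0462). The interaction, Polg(D181A) minus WT on the log2 scale, was −7.73 for Plekhg1, −12.45 for Clybl, −9.15 for Adora2a, 9.10 for Emcn, 9.36 for D7Ertd443e and 7.05 for Kif3c. In each of them both libraries of at least 1 group had no read, so these sizes depend on the prior count and are no bound. D7Ertd443e had 0, 0, 3.73 and 2.39 CPM in PVT, 74.9, 100.1, 120.0 and 93.4 in CP and 60.7, 46.4, 104 and 111 in NAC.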

How the results depend on the processing

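Counts are given as genes higher and lower in PVT, against the striatum unless named. Counts left out stayed close to those of the main fit. DESeq2's Wald test gave 2549 and 1498, 2775 and 1399 against CP, 1697 and 1243 against NAC, and 947 genes differing by genotype. Voom gave 3618 and 2099, 2376 and 2097 (CP), 2986 and 2372 (NAC) and 46 by genotype. Genes without a peak entered as 0 gave 3533 and 1653, 3233 and 1643 (CP), 1908 and 1462 (NAC) and 0 by genotype. Peaks within 1 kb of a gene's ends alone gave 148 and 64, 188 and 73 (CP), 27 and 29 (NAC) and 0 by genotype, and peaks overlapping in all 3 regions alone 388 and 238, 369 and 263 (CP), 195 and 148 (NAC) and 1 by genotype. A peak length offset gave 3 and 41, 65 higher against CP, and 0 and 0 against NAC. A test against a log2 change of 1 gave 582 and 528, 660 and 541 (CP), 261 and 392 (NAC) and 3 by genotype. An additive model of region and genotype gave 668 higher against CP. Fits of 2 regions alone gave 1875 and 1732 against NAC. WT libraries alone gave 150 and 125, 70 and 83 (CP) and 33 and 50 (NAC), and Polg(D181A) libraries alone 353 higher against NAC.

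A replicate block gave 901 and 914, 643 higher against CP, 0 by genotype and 0 and 26 per kb. The numbers are not known to pair the libraries. Per kb of peak, DESeq2 size factors gave 2 and 8, total counts 7 and 341, and an additive model 0 and 79.

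Leaving out 1 library gave 630 to 3181 higher and 587 to 1543 lower, 590 to 4060 and 581 to 1418 against CP, 323 to 1345 and 448 to 1412 against NAC, 0 to 1001 and 0 to 810 per kb, and 0 to 1376 by genotype. Without both sparsest striatal libraries, an alternative chosen after seeing the data, the counts were 2237 and 1886, 2155 and 1810 (CP), 1329 and 1535 (NAC), 121 and 739 per kb and 37 by genotype, and 2232 of the 2270 called genes remained called.

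Over 86 genes, 2043 of 2472 values kept direction and side of the threshold, 393 lost it, 8 gained it and 28 turned direction. With peaks at gene ends alone, Gnal stood at 0.54, Rarb at 1.72, Ano3 at 0.21, Map2 at 2.56 and Syt1 at 0.27 (log2). With peaks shared by all 3 regions, Pde1c stood at 2.11, Grik3 at −0.046, Rarb at 0.51, Grik2 at 0.00723 and Tcf7l1 at 0.43. With peaks of no other gene, Camk2a stood at 0.21. With the length offset, values were −0.61 for Rora, −0.70 for Cacna1g, −0.44 for Kcnd3, −0.20 for Lhx2, −0.13 for Gabbr2, −0.66 for Grm4, −0.20 for Grin2a, −0.48 for Grin2b, −0.33 for Grin3a, −1.26 for Grik3, −0.92 for Gabrd, −0.10 for Znrf3, −0.19 for Wnt3, −0.70 for Necab2, 0.13 for Npsr1, 0.34 for Grm5 and −0.76 for Cux2. The cause of these shifts was not tested, apart from the offset, which divides by called length. The part of depth and of empty peaks in the number of calls was not tested.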

Other observations

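Other tables of the series gave readouts of the same genes. ATAC-seq of PVT had a peak over 98.7% of genes called higher, 97.9% of genes called lower and 98.1% of all tested genes, with median counts of 88.2, 67.5 and 56.8 CPM. Gene spans differed too, with medians of 59.5, 79.2 and 30.2 kb. Of genes with an H3K27ac peak in PVT and not in the striatum 73.6% had an ATAC-seq peak in PVT, against 65.2% of genes with a peak in CP and NAC only and 12.6% of genes with a peak in none of the 3.

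In cortex, 52.2% of genes with a peak in PVT only and 73.9% of genes with a peak in CP and NAC only had an H3K27ac peak. Meis2, without a peak in PVT, had 24.2 kb of peak in cortex, while Isl1 had none. Over Pbx3, which had no H3K27ac peak in PVT, ATAC-seq counted 53.9 ± 9.28 CPM there, and over Isl1 and Six3 it had no peak. These shares are descriptions with no test.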
